A study of Mus musculus with 14 samples.

Results

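Fgf4, Fgf15, Fgfr1, Spry2, Spry4, Dusp6, Etv4 and Etv5 are genes of the FGF-ERK signalling pathway, and the 8 were taken as a set by name. All peaks of 8 ChIP-seq peak lists whose centre lay within 100 kb of the body of one of these genes (mm9, GENCODE vM1) were collected, out of 22225 protein-coding genes searched in the same way. The set had 3 genes for ligands and a receptor (Fgf4, Fgf15, Fgfr1) and 5 feedback genes (Spry2, Spry4, Dusp6, Etv4, Etv5). Their windows covered 1.6 Mb and held 113 of the 24416 listed peaks, each counted once.

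The lists came from mouse ES cells that carried a FLAG-tagged mouse Sim2 transgene at the ROSA locus, under a CMV promoter that is switched on when tetracycline is taken away. SIM2 is a bHLH-PAS transcription factor. Anti-FLAG ChIP was done after 26 h without tetracycline in 3 such clones, named A6, B8 and C4. The parental line EB3 does not carry the Sim2-FLAG transgene and was taken through the same steps. The lists of NANOG, OCT4, MED1 and MED12 (the last 2 are subunits of the Mediator complex) used here came from clone A6. Each was 1 library of 1 clone in which SIM2 was induced. The authors also precipitated these factors in EB3, and those data were not used here. Each clone is 1 line, and a peak that is not listed is not an unbound region: the smallest peak held 20 tags in A6, 11 in the lists of B8 and C4, 10 in NANOG, 24 in OCT4, 14 in MED1 and 14 in MED12. A tag is 1 mapped read after removal of duplicates. The intervals given with tag counts are 95% Poisson intervals, which cover counting error only, and tag counts were compared within a library only, because the depth of each library is not known from the lists. Percentiles are by HOMER's normalized tag count, which does not follow the tags within a list. In B8, for example, a peak of 13 tags had percentile 88.4 and a peak of 16 tags percentile 13.6. Ranks by HOMER's findPeaks score are added where the 2 ranks of a peak at a site differ by over 1.5 times, and for the OCT4 peak at Fgf4. The labelled cell type was checked at 5 pluripotency genes. Within 100 kb, NANOG peaks numbered 6 at Pou5f1, 9 at Nanog, 7 at Sox2, 4 at Klf4 and 7 at Esrrb, and each gene had at least 1 OCT4 peak. Of all protein-coding genes, 67.7% had a NANOG peak and 21.8% an OCT4 peak within 100 kb. At least 4 NANOG peaks were near 14.2% of them.

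In ES cells, FGF4 is the main autocrine ligand of this pathway. It binds FGF receptors and, through a cascade of kinases, activates the kinase ERK, which moves cells from self-renewal toward differentiation. Active ERK induces its own brakes, among them the Sprouty proteins, which dampen signalling below the receptor, and DUSP6, a phosphatase that removes phosphate from ERK. The ETS factors ETV4 and ETV5 are transcribed in response to the same signal.

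A SIM2 site was defined as FLAG peaks of at least 2 clones with centres within 100 bp of each other and no EB3 peak. The series held 1229 such sites, and 8 of them lay in the windows. They gave 7 of the 8 genes a site, against 13.4% of all protein-coding genes, and a site in all 3 clones was near 3 of the 8 genes against 4.37%. Fgf4 and Fgf15 were counted through the same site, so the 3 genes rest on 2 sites. Dusp6 was the gene without a site. Of the 8 sites, 1 lay in a 3′ UTR, 3 in introns and 4 between genes, and none lay within 1 kb of a start of transcription of the set. The nearest start was that of the named gene for 7 of the 8. The count rests on clones A6 and B8: without A6, and likewise without B8, 2 sites near 3 genes were left, where the series kept 354 and 384 of its 1229 sites. With peaks at least 8 times the input in both clones, no site was left in the windows and 261 in the series.

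The sequences under the sites show what lies beneath the places where the factors coincided. Those shown are the mm9 plus strand around the centre of the sites that had peaks of at least 2 other factors, except the Spry4 site, whose sequence is not shown here, and the Fgfr1 distal NANOG peak, which was chosen after its values were seen. Capitals mark exact matches, on either strand, to the octamer ATGCNAAT (OCT4 type), ACAANG (SOX type), CCATTA (NANOG type), ACGTG (bHLH-PAS core), CCNCACCC (KLF type) or CCGGAAGT (ETS type), and in the Fgf4 3′ UTR only 30 bases are given. Where matches overlap, as the octamer and the NANOG type do in Fgf4, they form 1 run of capitals.
Fgf4 3′ UTR, chr7:152050293-152050322: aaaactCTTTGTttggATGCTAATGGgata
Spry2 upstream site, chr14:106319599-106319798: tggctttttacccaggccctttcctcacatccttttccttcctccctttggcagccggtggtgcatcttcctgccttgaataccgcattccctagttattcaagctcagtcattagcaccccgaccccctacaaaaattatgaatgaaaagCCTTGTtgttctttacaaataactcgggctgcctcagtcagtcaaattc
Etv4 upstream site, chr11:101648711-101648910: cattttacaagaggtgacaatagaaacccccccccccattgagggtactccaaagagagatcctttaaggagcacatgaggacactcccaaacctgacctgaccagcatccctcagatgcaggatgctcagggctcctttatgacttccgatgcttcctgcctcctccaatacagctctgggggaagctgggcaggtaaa
Etv5 intronic site, chr16:22413033-22413232: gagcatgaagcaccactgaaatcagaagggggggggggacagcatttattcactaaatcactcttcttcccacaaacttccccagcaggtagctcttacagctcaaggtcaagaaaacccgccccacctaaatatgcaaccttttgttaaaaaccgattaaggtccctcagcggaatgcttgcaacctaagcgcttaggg
Fgfr1 distal NANOG and OCT4 peak, chr8:26565627-26565826: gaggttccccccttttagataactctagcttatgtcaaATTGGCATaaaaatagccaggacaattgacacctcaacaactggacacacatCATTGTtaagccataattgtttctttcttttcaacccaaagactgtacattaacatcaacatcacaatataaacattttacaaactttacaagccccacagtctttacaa

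The Fgf4 stretch holds a SOX type match and an octamer separated by 4 bases. Such a pair, with at most 10 bases between the matches, was found in the 200 bp around 16 of the 1229 SIM2 sites (1.3%), 165 of the 14815 NANOG peaks (1.11%) and 65 of the 2532 OCT4 peaks (2.57%). A second octamer lay on the minus strand of the same site at chr7:152050255-152050262. The Fgfr1 distal peak also held an octamer and a SOX type match, but further apart than the pair allows. None of the 6 motifs occurred in the 200 bp shown for Etv4 and Etv5, and the Etv5 stretch includes 15 bases of a coding exon at its left end. Over the 8 sites, a SOX type match was present at 4, an octamer at 1, a KLF type match at 1 and a NANOG type match at 1, against 54.6%, 12.7%, 13.4% and 9.68% of all SIM2 sites. The bHLH-PAS core was found at 0 of the 8 sites and at 14.1% of all SIM2 sites. A match is a description of the letters and no match says nothing of the factor.

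**Figure D1:**
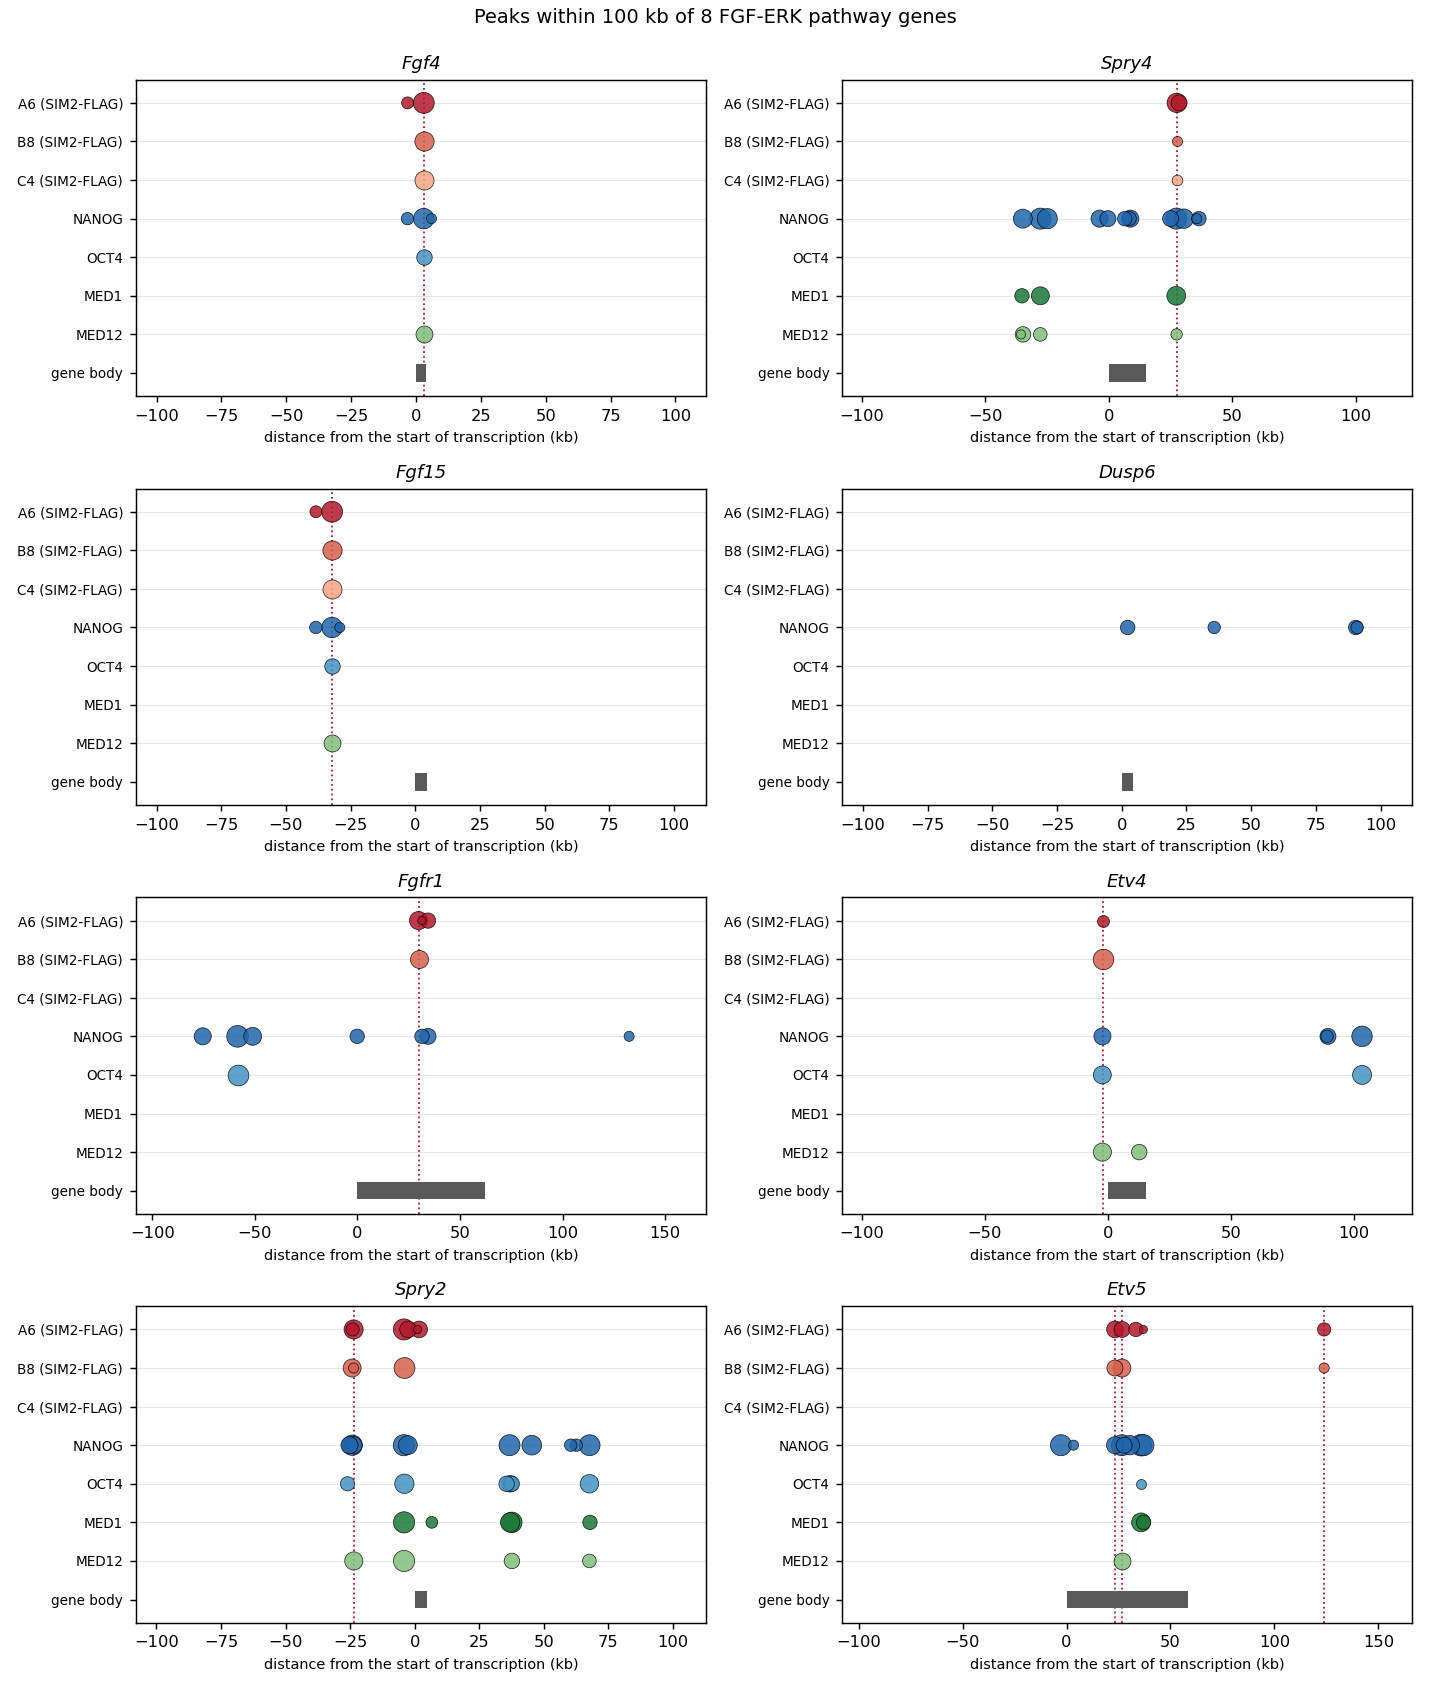
Position of every listed peak by distance from the start of transcription of each gene (kb, positive in the direction of transcription), 1 row per peak list. The symbol area grows with the percentile of the peak within its own list, dotted lines mark SIM2 sites in at least 2 clones, and grey bars are gene bodies. Fgf4 and Fgf15 show the same peaks seen from 2 starts, Spry2 and Spry4 carry peaks of several lists on both sides of the gene, and Dusp6 shows only NANOG peaks.

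The strongest shared site of the ligand locus lay inside Fgf4 itself. Fgf4 (ENSMUSG00000050917.4, chr7:152047291-152051148, plus strand) and Fgf15 (ENSMUSG00000031073.5, chr7:152082437-152086858, plus strand), which encodes an FGF of the endocrine subfamily, are neighbours, and their windows held the same peaks, so they give 1 observation and not 2. The site, chr7:152050235-152050335, was in the 3′ UTR of Fgf4, 2994 bp downstream of its start and 32152 bp upstream of the start of Fgf15. The FLAG peak there held 47 tags in A6 (interval 34.5 to 62.5, percentile 92.4 of the A6 list), 17 in B8 (9.9 to 27.2, percentile 76.5) and 12 in C4 (6.2 to 21, percentile 74.8). The C4 peak ranked 126 of 631 by normalized tag count and 254 by score. It was the only one of the 8 sites whose A6 peak fell in the top 10% of that list.

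Around the same point, the NANOG peak held 41 tags (29.4 to 55.6, percentile 88), the OCT4 peak 26 tags (17 to 38.1, percentile 45.6) and the MED12 peak 18 tags (10.7 to 28.4, percentile 57.2). The OCT4 peak was close to the smallest of its list (24 tags) and below the list median of 32. It ranked 1278 of 2532 by normalized tag count and 1908 by score. No MED1 peak was listed in the window. The centres of the 6 peaks fell within 34 bp of the centre of the site. The 3′ UTR of Fgf4 is known to hold an enhancer that OCT4 and SOX2 bind in ES cells. The octamer and SOX type match printed above lie within this interval, 22 bp from its centre. The rest of the shared window held an A6 peak of 22 tags with a NANOG peak of 10 tags about 3.3 kb upstream of Fgf4, and another NANOG peak of 10 tags 5.97 kb downstream of its start. The window also contained Ccnd1, Fgf3 and Oraov1, so the peaks cannot be assigned to 1 gene by position.

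Fgfr1 (ENSMUSG00000031565.10, chr8:26624126-26686186, plus strand) encodes the main FGF receptor of ES cells, and its SIM2 site and its strongest NANOG peak lay at different places. The site, chr8:26653928-26654028, was intronic, 29852 bp from the start, and present in A6 with 30 tags (20.2 to 42.8, percentile 67.1) and in B8 with 17 tags (9.9 to 27.2, percentile 65.5). It had no peak of another factor within 100 bp. The other 2 FLAG peaks of the window, with 25 and 20 tags, were in A6 only and each lay on a NANOG peak of 14 or 11 tags. By contrast, the NANOG peak 58.4 kb upstream of Fgfr1 held 91 tags (73.3 to 112) and ranked 36 of 14815, with an OCT4 peak of 49 tags (36.3 to 64.8) that ranked 227 of 2532, and no FLAG peak of any clone was listed there. A NANOG peak of 10 tags was centred 92 bp upstream of the start. No MED1 and no MED12 peak was listed within 100 kb of Fgfr1.

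Among the inhibitors, Spry2 (ENSMUSG00000022114.4, chr14:106291166-106296036, minus strand) had the most peaks of the 8 genes, 34 over the 8 lists, and no other protein-coding gene overlapped its window. It had 6 A6 peaks, a number reached by 0.0495% of protein-coding genes, and 6 OCT4 peaks, reached by 0.0225%. Its site, chr14:106319648-106319748, lay 23662 bp upstream, with 33 tags in A6 (22.7 to 46.3, percentile 75.5) and 16 in B8 (9.15 to 26, percentile 13.6). This B8 peak ranked 1704 of 2137 by normalized tag count but 557 by score. A NANOG peak of 22 tags (13.8 to 33.3) and a MED12 peak of 18 tags (10.7 to 28.4) coincided with it. By normalized tag count and by score, the NANOG peak ranked 5658 and 3650 of 14815, and the MED12 peak 312 and 505 of 1071. The site is the stretch printed above with a single SOX type match.

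The strongest FLAG peaks near Spry2 were closer to the gene and fell outside the definition of a site. The A6 peak 4181 bp upstream held 51 tags (38 to 67.1, percentile 94.3) and was the strongest A6 peak of all windows. The B8 peak of 22 tags (13.8 to 33.3, percentile 91.7), the strongest B8 peak of all windows, was centred 222 bp away from it, beyond the 100 bp that join peaks of different clones. Over the same 418 bp lay a NANOG peak of 47 tags (34.5 to 62.5, percentile 94.4), an OCT4 peak of 36 tags (25.2 to 49.8, percentile 77.4), a MED1 peak of 44 tags (32 to 59.1, rank 38 of 762) and a MED12 peak of 34 tags (23.5 to 47.5, rank 57 of 1071). These MED1 and MED12 peaks were the strongest of their lists in the windows. Peaks of 23 tags in A6 and 18 in B8 about 24.1 kb upstream were likewise 174 bp apart. Joining centres within 200 bp gave 9 sites in the windows and joining them within 300 bp gave 10.

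Downstream of Spry2, peaks of NANOG, OCT4, MED1 and MED12 coincided 67.7 kb from the start, with 29, 43, 15 and 18 tags. A further cluster of OCT4, MED1, NANOG and MED12 peaks lay between 35.6 and 37.6 kb, with a NANOG peak of 56 tags (42.3 to 72.7). No FLAG peak was listed at either place. The Spry2 window therefore held Mediator peaks both with and without a FLAG peak.

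Spry4 (ENSMUSG00000024427.6, chromosome 18, 38745922 to 38760922, minus strand), a second Sprouty inhibitor, had 13 NANOG peaks, a number reached by 0.139% of protein-coding genes, and no OCT4 peak. Its site at 38733353 to 38733453 lay 27519 bp past the start and so 12.5 kb beyond the end of the gene. The FLAG peak held 34 tags in A6 (23.5 to 47.5, percentile 77.9), 14 in B8 (7.65 to 23.5, percentile 13.6) and 13 in C4 (6.92 to 22.2, percentile 16.3). By score the ranks rose from 1704 to 693 of 2137 in B8 and from 478 to 199 of 631 in C4, so the low percentiles hold for the normalized tag count only. Together with the Fgf4 site, it was 1 of the 2 sites found in all 3 clones. NANOG with 40 tags (28.6 to 54.5, percentile 93.6), MED1 with 18 tags (10.7 to 28.4) and MED12 with 14 tags (7.65 to 23.5) coincided with it, and it was the only site of the 8 with MED1. On the other side of the gene, within an intron of 9630014M24Rik, NANOG (35 tags), MED1 (14 tags) and MED12 (15 tags) peaks coincided 27.7 kb upstream with no FLAG peak. The strongest MED12 peak of the window, 16 tags (9.15 to 26, percentile 45.9), lay 34.7 kb upstream on a NANOG peak of 20 tags. The window also included Arhgap26.

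Dusp6 (ENSMUSG00000019960.6, chr10:98725865-98730122, plus strand) stood apart from the other 7 genes. No FLAG, OCT4, MED1 or MED12 peak was listed within 100 kb, and the nearest SIM2 site was 2950 kb away. It had 4 NANOG peaks of 10 to 16 tags, the strongest of them 2.3 kb from the start in an intron, and none above percentile 38.6 of the NANOG list.

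**Figure D2:**
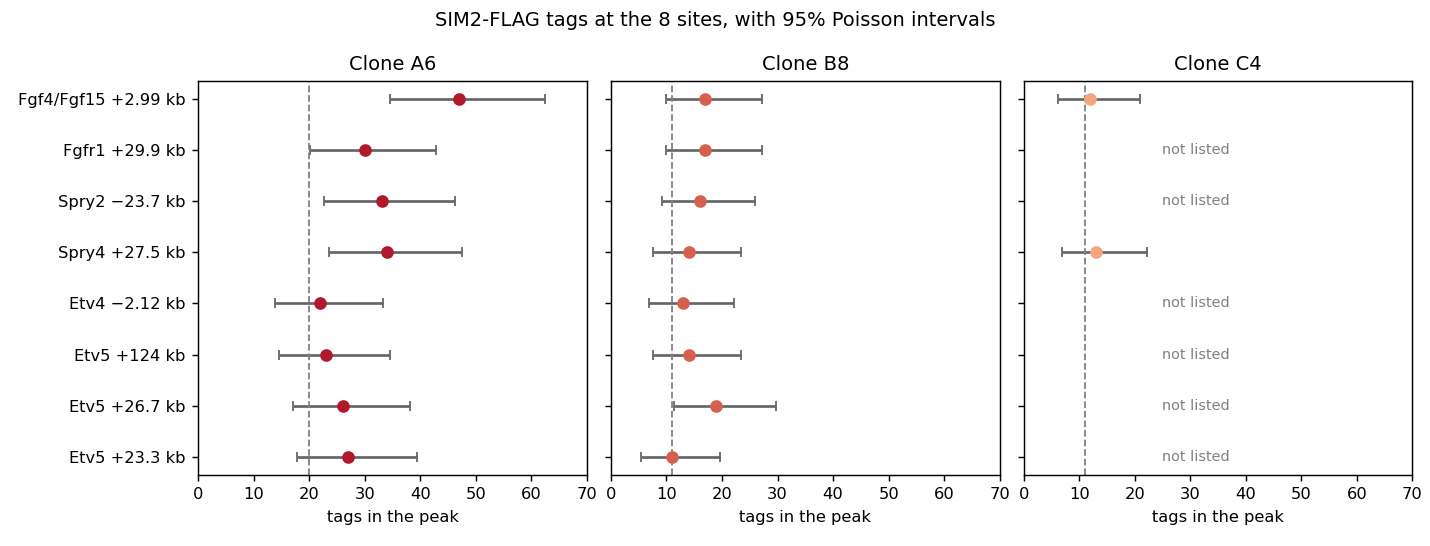
Tags in the FLAG peak of each clone (x axis) at the 8 SIM2 sites, labelled by gene and distance from its start. Points are single libraries, bars are 95% Poisson intervals and the dashed line is the smallest peak of that list. A6 peaks held 22 to 47 tags, B8 peaks 11 to 19, and C4 listed a peak at 2 of the 8 sites, with 12 and 13 tags.

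The ETS factor genes differed in the layout of their sites. Etv4 (ENSMUSG00000017724.8, chr11:101631056-101646685, minus strand) had 1 site 2125 bp upstream of the start, chr11:101648760-101648860, the closest of the 8 to a start. A6 held 22 tags there (13.8 to 33.3, percentile 22.9) and B8 13 tags (6.92 to 22.2, percentile 88.4). The B8 count is the median of that list, and its rank fell from 209 to 858 of 2137 by score. NANOG with 20 tags (12.2 to 30.9), OCT4 with 35 tags (24.4 to 48.7) and MED12 with 19 tags (11.4 to 29.7) coincided, although their centres lay 119, 180 and 151 bp from that of the site. The strongest NANOG peak of the window, 46 tags (33.7 to 61.4, percentile 88), and the strongest OCT4 peak, 43 tags (31.1 to 57.9, percentile 74.1), coincided 103 kb past the start, where the nearest gene start is that of Arl4d and no FLAG peak was listed. A MED12 peak of 14 tags lay alone in an Etv4 intron.

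Etv5 (ENSMUSG00000013089.8, chr16:22381382-22439792, minus strand) had 3 sites, a number reached by 0.342% of protein-coding genes. The intronic site chr16:22413082-22413182, 26660 bp from the start, held 26 tags in A6 (17 to 38.1) and 19 in B8 (11.4 to 29.7), with NANOG at 38 tags (26.9 to 52.2, percentile 92.8) and MED12 at 16 tags (9.15 to 26). The intronic site chr16:22416442-22416542, 23300 bp from the start, held 27 tags in A6 (17.8 to 39.3) and 11 in B8 (5.49 to 19.7), the smallest B8 count that the list contains, with NANOG at 17 tags (9.9 to 27.2). By score, the B8 ranks of these peaks moved from 597 to 211 and from 880 to 1372 of 2137. The site chr16:22315818-22315918, with 23 tags in A6 (14.6 to 34.5) and 14 in B8 (7.65 to 23.5), had no other factor and lay 49.8 kb from the start of Tra2b against 124 kb from that of Etv5. Its B8 rank was 1704 by normalized tag count and 858 by score. As at Fgfr1, the strongest NANOG peak had no FLAG peak: it held 68 tags (52.8 to 86.2, rank 218), lay 35.8 kb from the start in an intron, and coincided with OCT4 at 27 tags (17.8 to 39.3) and MED1 at 18 tags (10.7 to 28.4). An A6 peak of 20 tags, not found in B8 or C4, lay 37 kb from the start on a NANOG peak of 42 tags and a MED1 peak of 16 tags.

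**Figure D3:**
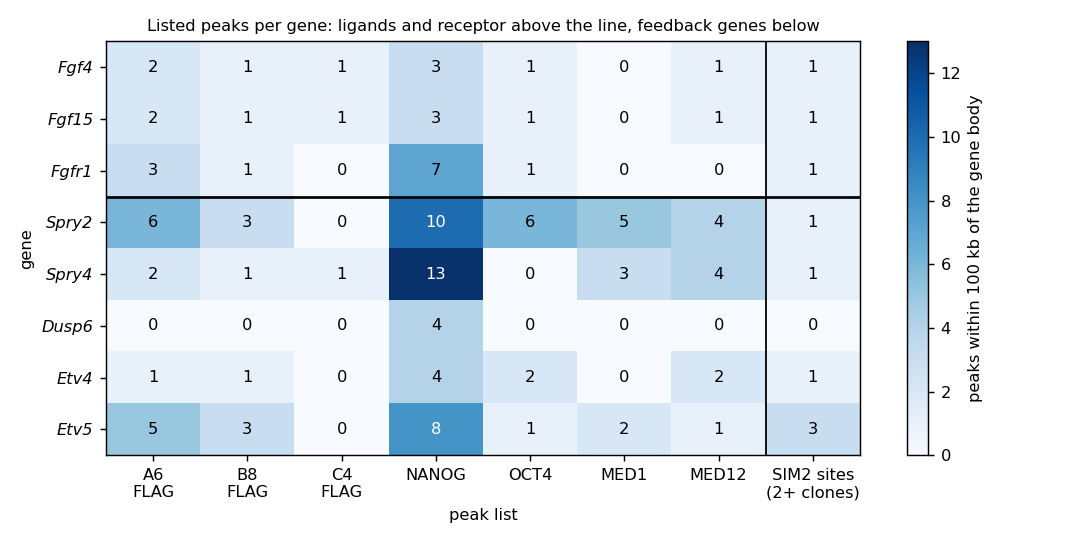
Number of listed peaks within 100 kb of the gene body for each gene (rows) and list (columns), with SIM2 sites in at least 2 clones in the last column. The colour scale is the count. Spry4 has the most NANOG peaks (13), Spry2 the most OCT4 (6) and MED1 (5) peaks, and the MED1 column is empty for Fgf4, Fgf15 and Fgfr1.

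Counted over the 8 genes, NANOG peaks were near all 8 (67.7% of protein-coding genes), OCT4 peaks near 6 (21.8%), MED12 peaks near 6 (10.9%) and MED1 peaks near 3 (8%). The FLAG lists had a peak near 7 of the genes for A6 (23.1%), near 7 for B8 (19.8%), near 3 for C4 (6.07%) and near none for EB3 (1.15%). In these counts Fgf4 and Fgf15, which share all their peaks, stand as 2 genes. The windows held 49 NANOG, 11 OCT4, 12 MED12 and 10 MED1 peaks, which amounts to 1.31% of the MED1 list and 1.12% of the MED12 list, against 0.331% of the NANOG list and 0.434% of the OCT4 list. Per Mb, the windows held 30.6 NANOG, 6.88 OCT4, 7.5 MED12, 6.25 MED1 peaks and 5 SIM2 sites, where the windows of all protein-coding genes held 6.55, 1.13, 0.501, 0.331 and 0.588. The genes were chosen by name with earlier results of these data known, so these figures are a description.

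Of the 8 sites, 6 had a NANOG peak within 100 bp, 2 an OCT4 peak, 1 a MED1 peak and 5 a MED12 peak. Among all 1229 sites the shares were 82%, 46.2%, 12% and 28.4%. The 2 sites without any of the 4 factors were the Fgfr1 intronic site and the distal Etv5 site. Read from the NANOG side, 6 of the 49 NANOG peaks lay on a SIM2 site (12.2%, Wilson 95% interval 5.73 to 24.2, against 6.8% of all NANOG peaks) and 8 on an OCT4 peak (16.3%, 8.51 to 29, against 16.2%). Mediator was listed at 7 of them for MED1 (14.3%, 7.1 to 26.7, against 2.79%) and at 9 for MED12 (18.4%, 9.98 to 31.4, against 6.15%). The peaks come from 1 library per factor and cluster at a few loci. These intervals cover counting error only and treat the peaks as independent, so they are too narrow and are no test.

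The peaks of all lists fell into 62 separate regions when those within 100 bp were joined. Of these, 29 were NANOG peaks alone, 23 had peaks of at least 2 lists and 7 had peaks of at least 4. Among the 19 regions with a FLAG peak, 6 had none of the 4 factors. Regions were joined in the windows only, so no share over the series stands beside these counts. The 7 richest regions were the Fgf4 3′ UTR, Spry2 at 4.09 kb and 23.6 kb upstream and at 67.7 kb downstream, the Spry4 site, the Etv4 site and the Etv5 site at 26.7 kb. The Spry2 region downstream was the only one of the 7 with no FLAG peak. Outside the 8 sites, A6 listed 11 further FLAG peaks of 20 to 51 tags in the windows, 7 of them with another factor. B8 listed 2, each with another factor, and C4 none. These counts too have no share over the series beside them.

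Set side by side, the ligand and receptor genes had 2 sites in 0.502 Mb (3.99 per Mb) and the feedback genes 6 sites in 1.1 Mb (5.46 per Mb). NANOG peaks numbered 10 (19.9 per Mb) against 39 (35.5 per Mb), OCT4 peaks 2 (3.99 per Mb) against 9 (8.2 per Mb) and MED12 peaks 1 (1.99 per Mb) against 11 (10 per Mb). All 10 MED1 peaks were near feedback genes, where they came from Spry2 (5), Spry4 (3) and Etv5 (2). The median NANOG peak held 12.5 tags near the ligand and receptor genes, with a range of 10 to 91, and 20 near the feedback genes, with a range of 10 to 68, so the ranges overlap over most of their length and the strongest NANOG peak of the set belonged to the smaller class. The feedback class was itself uneven, since Dusp6 contributed no SIM2, OCT4 or Mediator peak. Of its 9 OCT4 peaks, 6 were near Spry2 and none near Spry4. Etv5 held 3 of its 6 sites, and its MED12 peaks came mostly from Spry2 (4) and Spry4 (4). The higher class figures for OCT4 peaks and for sites thus rest largely on 1 gene each. With 2 independent loci against 5, no test was made.

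**Figure D4:**
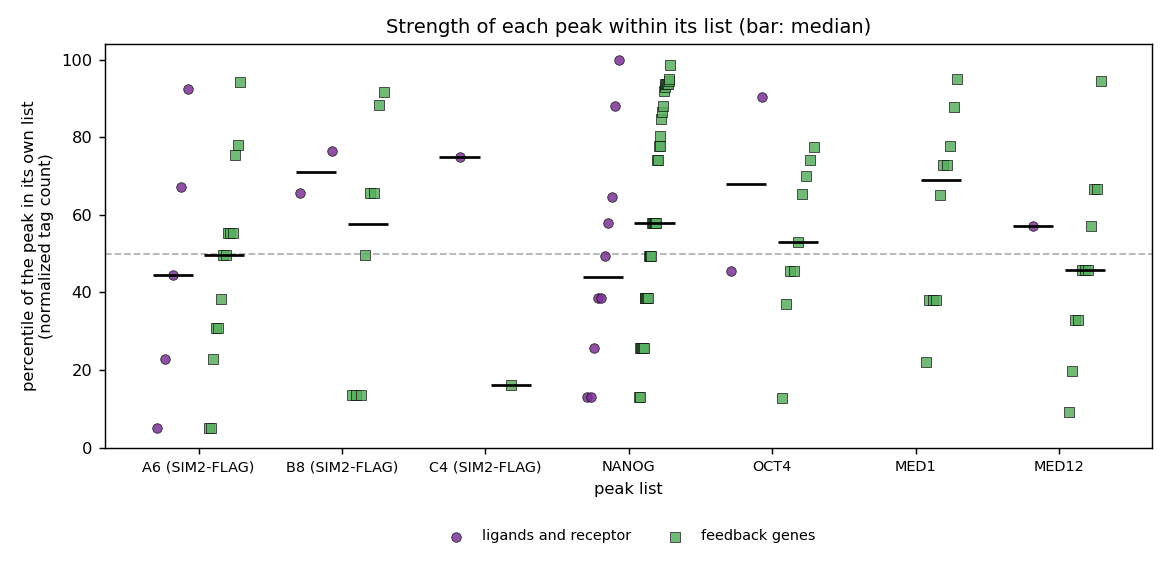
Percentile of each peak within its own list by normalized tag count (y axis) for the 7 lists with peaks in the windows (x axis), with the shared Fgf4 and Fgf15 peaks drawn once. Circles are peaks near ligands and receptor, squares peaks near feedback genes, bars are medians and the dashed line is percentile 50. Both classes spread over most of the scale in the NANOG list, with medians of 44 and 58, and the MED1 list has no circle.

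A list of 52 other genes of the pathway, of which 51 were found in the annotation, gave the wider setting. SIM2 sites lay within 100 kb of 15 of them (29.4%, against 13.4% of all protein-coding genes) and NANOG peaks of 44 (86.3%, against 67.7%). OCT4 peaks were near 23 (45.1%, against 21.8%), MED12 peaks near 16 (31.4%, against 10.9%) and MED1 peaks near 8 (15.7%, against 8%). By role, sites were near 2 of 6 ligands, 1 of 4 receptors, 4 of 19 signal transducers, 4 of 12 inhibitors and 4 of 10 transcription factor targets. Fgf3 and Ccnd1 are also in the NANOG, OCT4 and MED12 counts, and they had a SIM2 site only through the Fgf4 site. That leaves 13 genes with a site of their own. Among these were the receptor gene Fgfr2 with 20 NANOG peaks, the pathway inhibitors Spred1 and Spred2, and the immediate early genes Egr1 and Fos.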

How the data were processed

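ChIP-seq peak lists of 8 libraries were used as deposited: FLAG in EB3 and the 3 clones, and NANOG, OCT4, MED1 and MED12 in A6. Input libraries had no list of their own here. The authors aligned the reads by BWA (mm9) and, after taking out duplicate reads, ran HOMER findPeaks on each library against its input (versions not given in the sources used here). The deposited signal is HOMER's normalized tag count, used to rank peaks within a list, with ties sharing the better rank. The deposited findPeaks score gave the alternative rank. The deposited ratio is the fold change over input. The deposited tag counts were whole in 5 lists, while in A6, EB3 and OCT4 the authors had scaled them to the input, and dividing by the value of 1 tag (0.511, 0.886 and 0.583) gave whole tags for all peaks (within 0.05). The lists' own p-values were not used. Library depth is not known from these files.

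Sites, coincidence (a factor peak overlapping the 100 bp site widened by 100 bp) and windows were computed with Python 3.11.15, pandas 2.3.3, numpy 2.4.6, scipy 1.17.1 and pysam 0.24.0, and tested on 200 simulated sites, where all 119 that qualified were recovered. Motifs were searched in 200 bp. Gene bodies came from GENCODE vM1. All 8 genes, every site in at least 2 clones and the strongest peak of each factor list per gene are named by rule, and the others are given as counts and ranges except for single peaks named after their values were seen. Members and gene lists were chosen with earlier results of these data known. Windows, clones, thresholds and distances were varied.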

Additional observations from a re-analysis of the deposited data

How the results depend on the processing

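No paired analysis was possible because the results are counts of listed peaks and come from no test. Of 95 alternative counts, 58 stayed within 1.5 times the reported count. With windows of 25 kb, NANOG, OCT4, MED1 and MED12 peaks numbered 31, 4, 5 and 7, and with peaks at least 8 times the input 24, 1, 1 and 0. That threshold left 261 SIM2 sites in the series and 0 in the windows, hence 0 genes with a site, 0 sites near either class and 0 with NANOG, OCT4 or Mediator. Sites in all 3 clones numbered 2, near 3 genes, 1 near ligands and receptor and 1 near feedback genes, 2 with NANOG, 1 with OCT4 and 2 with MED1 or MED12. Leaving out A6, B8 or C4 in turn gave 2 to 8 sites, 3 to 7 genes, 1 to 2 sites near ligands and receptor, 1 to 6 near feedback genes, 2 to 6 with NANOG, 1 to 2 with OCT4 and 2 to 5 with MED1 or MED12. The low ends came without A6 (replicate 1) and without B8 (replicate 2), which also left 354 and 384 of the 1229 sites of the series. Without C4 (replicate 3) the counts in the windows did not move. Coincidence without widening left 1 site with OCT4. Joining centres within 300 bp, an alternative chosen after seeing the data, moved no count by over 1.5 times. Ranking by findPeaks score, also chosen after seeing the data, moved 10 of 32 ranks at the sites by over 1.5 times (6 in B8, 2 in C4, and the NANOG and MED12 peaks of the Spry2 site) and none of the 8 A6 ranks. Of the 18 FLAG peaks at the sites, 13 had an interval that reached below the smallest peak of their list. A median peak of A6, B8 or C4 (26, 13 or 12 tags) has such an interval too, so the count does not set these sites apart. A missing peak does not show an unbound region.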
